A study of Mus musculus with 4 samples.

Results

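The genes examined here are 8 genes whose expression is used to read the strength of T cell receptor signalling: the transcription factor genes Egr1, Egr2, Egr3, Nr4a1, Nr4a2 and Nr4a3, and the surface marker genes Cd69 and Cd5. Every probe set, a group of probes on the array that together measure a transcript, was taken if its single gene symbol in the platform annotation was 1 of these names. This gave 17 of 45037 probe sets, and 8 of 18193 genes. The rule names genes by function and uses no measured value, but the genes were listed with earlier results of these data known.

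The cells were T29, a mouse line from a thymic lymphoma, profiled on Affymetrix arrays. The DMSO group comprised 2 arrays of cells given the solvent, and the GSI group 2 arrays of cells given MRK003, an inhibitor of gamma-secretase, the protease that releases the intracellular part of Notch receptors. The labels write the dose as 5 mM and the exposure as 36 h, in a text that is the same for all 4 samples, so the groups rest on the sample titles. The unit of the dose is given as labelled, could not be checked here and may be an error in the labels. T29 is a single line, no receptor stimulus is named in the labels, and nothing states whether the replicates came from separate cultures, so p-values measure only the spread between these arrays.

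When a T cell receptor is engaged, kinase cascades through Ras and ERK and a calcium signal through calcineurin reach the nucleus and switch on immediate early genes without new protein synthesis. The Egr proteins are zinc finger factors induced mainly through ERK, and the Nr4a proteins are orphan nuclear receptors whose best known member, Nur77 (Nr4a1), is induced in thymocytes that receive a strong receptor signal. CD69 appears on the surface soon after stimulation, while CD5, an inhibitory receptor, is set to a level that follows the signal a developing thymocyte has received.

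Promoter sequences show what regulatory letters these genes carry. RefSeq windows (GRCm38.p6) from 250 bases before to 50 bases after a gene start were given for 5 of the 8 genes, namely Egr2, Nr4a1, Nr4a2, Nr4a3 and Cd5. A window from an Egr gene, an Nr4a gene and a surface marker gene is shown, since the text returns to these 3 kinds of gene. Capitals mark every match, on either strand, to the motifs searched. Egr2 lies on the plus strand at chr10:67537619-67537918, Nr4a1 on the plus strand at chr15:101266596-101266895 and Cd5 on the minus strand at chr19:10738925-10739224.
Egr2: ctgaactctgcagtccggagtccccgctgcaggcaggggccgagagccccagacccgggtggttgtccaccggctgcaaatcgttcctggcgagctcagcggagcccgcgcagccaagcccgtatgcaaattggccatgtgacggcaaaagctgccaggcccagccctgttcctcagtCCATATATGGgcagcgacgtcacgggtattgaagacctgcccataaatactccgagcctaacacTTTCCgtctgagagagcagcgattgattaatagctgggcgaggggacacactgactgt
Nr4a1: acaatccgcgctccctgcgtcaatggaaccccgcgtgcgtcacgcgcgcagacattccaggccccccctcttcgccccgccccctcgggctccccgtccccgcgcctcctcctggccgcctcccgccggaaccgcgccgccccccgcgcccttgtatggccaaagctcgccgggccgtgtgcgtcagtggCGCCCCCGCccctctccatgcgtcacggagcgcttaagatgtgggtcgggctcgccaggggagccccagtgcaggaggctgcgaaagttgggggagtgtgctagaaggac
Cd5: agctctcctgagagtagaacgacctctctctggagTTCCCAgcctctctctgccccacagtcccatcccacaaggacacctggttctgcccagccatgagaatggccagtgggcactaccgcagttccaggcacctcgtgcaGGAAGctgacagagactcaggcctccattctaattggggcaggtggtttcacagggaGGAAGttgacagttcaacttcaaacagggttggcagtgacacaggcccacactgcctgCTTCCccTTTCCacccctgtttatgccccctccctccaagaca

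The Egr2 window held a CArG box, the element bound by serum response factor, starting 72 bases before the gene start. Egr2 was the only 1 of the 5 genes with such a box, in 4 of its listed windows. Its windows starting at 67537619, 67537620 and 67537680 overlap and share the same box and the same match to the NFAT core. Of all 32851 windows, 1.63% held a CArG box. The Nr4a1 window held an Egr site (GCGTGGGCG or GCGGGGGCG), read on the minus strand, 60 bases before the start, as did 3.47% of all windows. The Cd5 window held the RBPJ core TGGGAA, the letters recognised by the DNA-binding partner of Notch, on the minus strand 215 bases before the start, and so did 25.6% of all windows. The ETS core GGAAG was found in the windows of Cd5 and in 1 of Egr2 (71.4% of all windows), and the NFAT core GGAAA in 4 windows of Egr2 and in those of Nr4a2 and Cd5 (61.3%). An E-box (CAGCTG or CACGTG) stood in 1 Egr2 window (22.2% of all windows). The NBRE AAAGGTCA, the CRE TGACGTCA and the AP-1 site (TGACTCA or TGAGTCA) matched none of the 9 windows, against 1.51%, 1.79% and 5.20% of all windows. The motifs share letters, so that matches to the NFAT, ETS and RBPJ cores can overlap. A match describes letters and not binding.

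None of the 8 genes was called in the comparison of GSI with DMSO (limma over all genes, adjusted p under 0.05). Across all genes 4.12% were called (2.56% higher and 1.56% lower), and 21.5% had an unadjusted p under 0.05, against 1 of the 8, Cd5. By means, 4 of the 8 were higher with GSI and 4 lower. Their median difference was -0.02 on the log2 scale, and that of all genes was -0.01. On the GSI arrays 4 of the 8 lay outside the range of the DMSO arrays, and so did 51.4% of all genes (23.7% higher and 27.7% lower). When each probe set was tested by itself, 0 of the 17 was called and 1 had an unadjusted p under 0.05, against 1.39% of all probe sets called (0.948% higher and 0.446% lower).

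**Figure D1:**
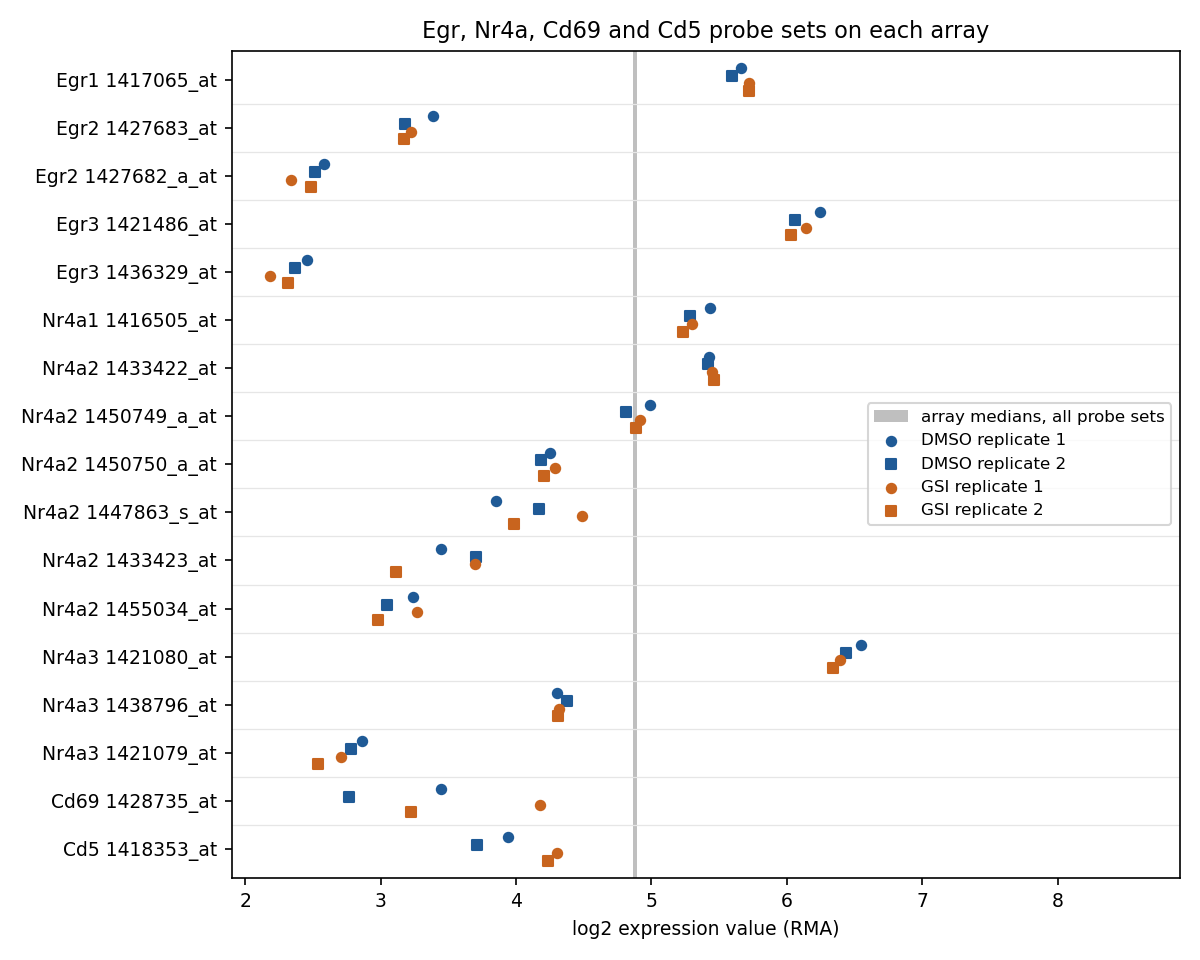
Log2 expression value (horizontal axis) of each of the 17 probe sets on the 2 DMSO arrays (blue) and 2 GSI arrays (orange), with circles for replicate 1 and squares for replicate 2. The grey band spans the median log2 values of the 4 arrays, 4.86 to 4.89, and 11 of the 17 probe sets lie below it on all arrays.

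Egr1, the founding factor of the family, read 5.66 and 5.60 with DMSO and 5.72 and 5.72 with GSI, in log2 units as for all levels below. Both GSI values lay above both DMSO values, by a small step. The difference was 0.09 (95% interval -0.11 to 0.30), a 1.07-fold change (limma, adjusted p = 0.595).

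Egr2 and Egr3, which are known in T cells for restraining activation, had overlapping groups on their brighter probe sets. The brighter Egr2 probe set read 3.39 and 3.18 with DMSO and 3.22 and 3.17 with GSI (difference -0.09, 95% interval -0.34 to 0.16, limma, adjusted p = 0.689). For Egr3 the brighter probe set read 6.24 and 6.06 with DMSO and 6.14 and 6.03 with GSI (difference -0.07, 95% interval -0.32 to 0.19, limma, adjusted p = 0.783). The dimmer probe set of each gene read 2.52 to 2.59 and 2.37 to 2.45 with DMSO, and 2.34 to 2.48 and 2.18 to 2.32 with GSI. In these dim probe sets the GSI values lay below the DMSO values, and the differences of -0.14 and -0.16 did not pass (limma over all probe sets, adjusted p = 0.568 and 0.493).

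Nr4a1, the gene of Nur77, read 5.43 and 5.29 with DMSO and 5.30 and 5.23 with GSI. The groups overlapped, with a difference of -0.09 (95% interval -0.32 to 0.14, limma, adjusted p = 0.634). It was -0.02 without DMSO replicate 1 and -0.16 without DMSO replicate 2. Nr4a3, whose product Nor-1 can stand in for Nur77 in thymocytes, read 6.55 and 6.44 with DMSO and 6.39 and 6.34 with GSI. Its GSI values lay below both DMSO values, by a difference of -0.13 (95% interval -0.34 to 0.09, limma, adjusted p = 0.476). The 2 dimmer Nr4a3 probe sets differed by -0.02 and -0.20, the latter with an adjusted p of 0.422 in the limma test of all probe sets.

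Nr4a2, best known for its role in dopamine neurons, had 6 probe sets. The brightest read 5.42 and 5.42 with DMSO and 5.44 and 5.46 with GSI. This difference of 0.03 (95% interval -0.17 to 0.24, limma, adjusted p = 0.863) was the smallest among the brightest probe sets of the 8 genes. Of the 6 probe sets 3 had higher and 3 lower means with GSI, between -0.17 and 0.22. The probe set with the lowest difference read 3.45 and 3.70 with DMSO and 3.70 and 3.11 with GSI, and that with the highest read 3.85 and 4.17 with DMSO and 4.49 and 3.98 with GSI. In both, replicates of a group lay further apart than the group means. The groups overlapped on every Nr4a2 probe set except the brightest, where both GSI values lay just above both DMSO values.

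For the 6 transcription factor genes together, the brightest probe sets differed by -0.13 to 0.09, and their 95% intervals ran at the widest from 0.788-fold to 1.23-fold. Among their 15 probe sets, 11 had lower and 4 higher means with GSI, between -0.20 and 0.22. These probe sets share genes and are not separate evidence. The intervals hold for the measured signal. Of the 6 brightest probe sets, that of Egr2 lay below the median on all arrays and the other 5 lay above it. Of all 15, 10 were not above it on all arrays. The background level of single probe sets was not analysed here, and dim signals compress differences. A narrow interval therefore does not show that the transcript was unaltered. In bulk RNA, fewer expressing cells and less RNA per cell cannot be told apart.

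**Figure D2:**
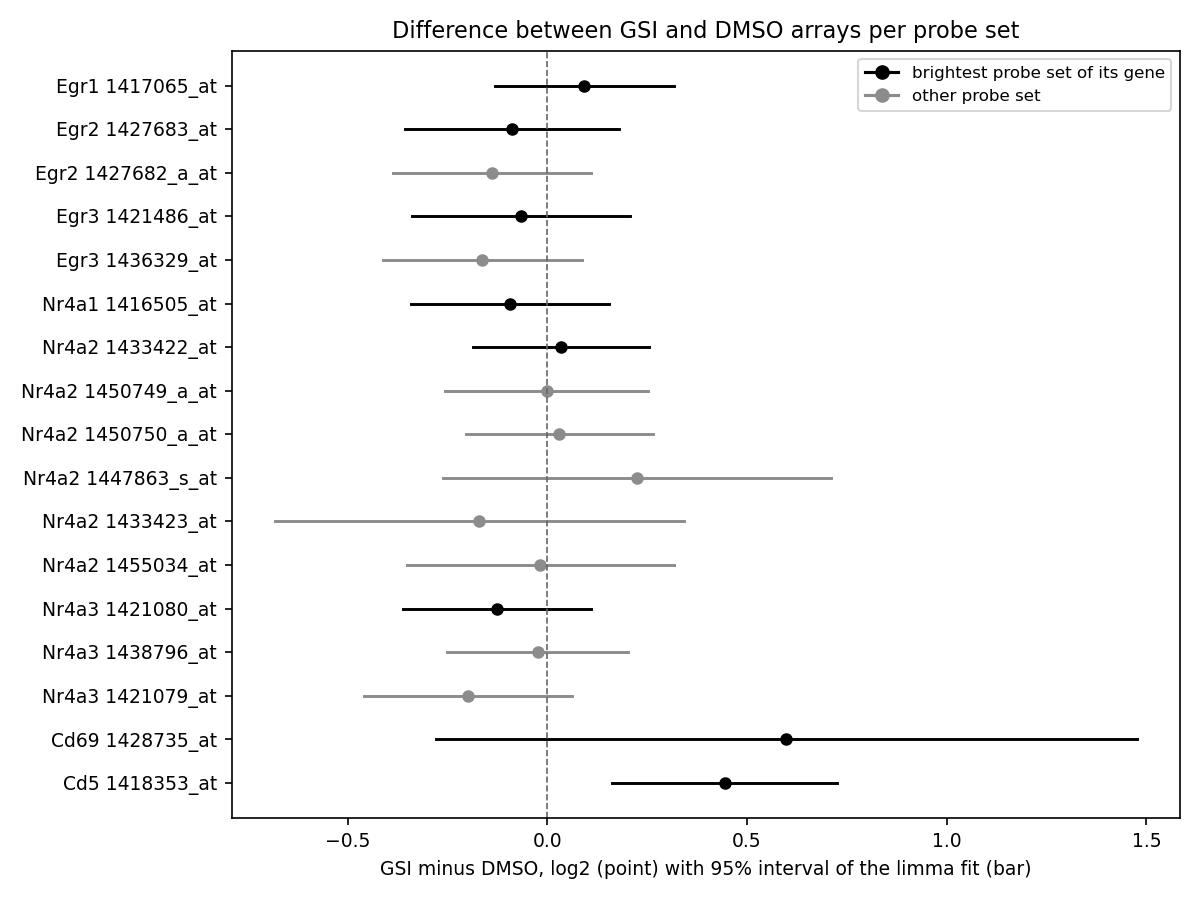
Difference between GSI and DMSO in log2 units (points) with the 95% interval of the limma fit over all probe sets (bars), in black for the brightest probe set of each gene and in grey for the others. All bars but that of Cd5 cross 0, and the bar of Cd5 runs from 0.16 to 0.72 before any adjustment for the number of probe sets.

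The surface marker genes had the largest differences of the 8, and neither passed. Cd5, which damps receptor signals, read 3.94 and 3.71 with DMSO and 4.30 and 4.24 with GSI. Both GSI arrays lay above both DMSO arrays. Its mean was 3.83 ± 0.16 with DMSO and 4.27 ± 0.05 with GSI (SD, n = 2). The difference of 0.44 ± 0.11 (SE), or 1.36-fold, had a 95% interval of 1.13-fold to 1.63-fold, an unadjusted p of 0.00666 and an adjusted p of 0.0855 (limma). At 0.36 between the arrays numbered 1 and 0.53 between those numbered 2, the difference was larger than the gap between replicates of either group, 0.23 for DMSO and 0.07 for GSI. By rank of p it was gene 1416 of 18193.

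Cd69, whose product holds the egress receptor S1P1 inside the cell, read 3.44 and 2.76 with DMSO and 4.18 and 3.23 with GSI. The groups overlapped, since GSI replicate 2 lay below DMSO replicate 1. The difference of 0.60 ± 0.35 (SE), or 1.51-fold, had a 95% interval of 0.829-fold to 2.76-fold and did not pass (limma, adjusted p = 0.394). Replicates lay 0.68 apart with DMSO and 0.95 apart with GSI, gaps wider than those of 99.4% and 99.9% of all genes. Replicate 1 was the higher in each group, and GSI exceeded DMSO by 0.73 between the arrays numbered 1 and by 0.46 between those numbered 2. Leaving out GSI replicate 1 or DMSO replicate 2 brought the difference to 0.12 or 0.26, and leaving out DMSO replicate 1 or GSI replicate 2 to 0.94 or 1.07. Both Cd69 and Cd5 were represented by 1 probe set each, which lay below the array median on all 4 arrays.

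On the brightest probe sets, replicate 1 of the DMSO group read higher than replicate 2 for all 8 genes. In the GSI group it did so for 7 of 8, Nr4a2 being the exception. Other probe sets of Egr2, Egr3, Nr4a2 and Nr4a3 did not all follow this order. Over all genes replicate 1 was the higher for 55.1% with DMSO, 53.6% with GSI and 29.1% in both groups. Apart from Cd69, the replicate gaps of the 8 genes on these brightest probe sets were at most 0.23 with DMSO and 0.12 with GSI. On dimmer Nr4a2 probe sets they reached 0.32 with DMSO and 0.58 with GSI.

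Cd5 had the smallest limma p of the 8, and its profile was compared with those of genes outside the 8. Unnamed gene models were left out. The measure of likeness was the distance between profiles over the 4 arrays after removing each gene's mean. Rtf2 lay nearest (root mean squared distance 0.00097 log2 units), followed by Pmepa1 (0.0145) and C1galt1 (0.0174). None of the 3 was called. With 4 arrays such likeness is common, as 469 of the genes compared lay within a distance of 0.1.

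**Figure D3:**
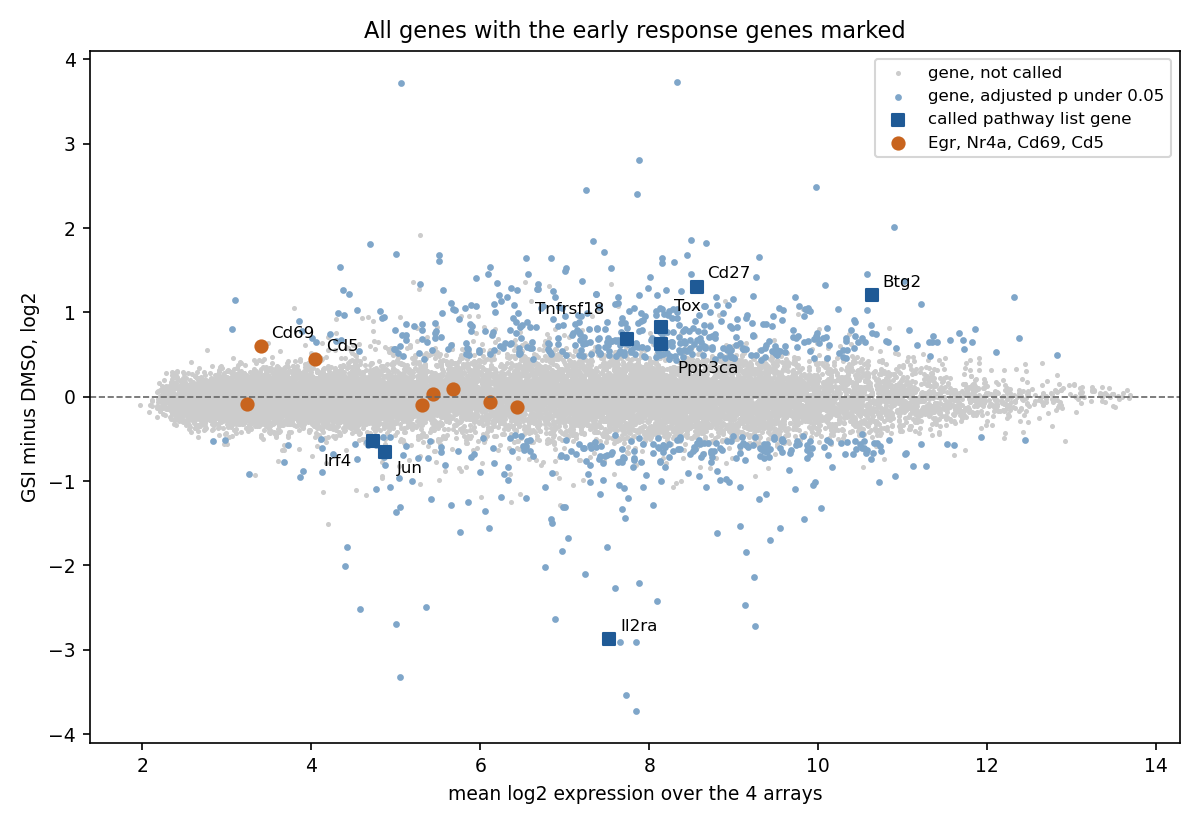
Difference between GSI and DMSO (vertical axis, log2) against mean log2 expression over the 4 arrays (horizontal axis) for 18193 genes, with genes called at an adjusted p under 0.05 in light blue, called genes of the pathway lists as squares and the 8 early response genes as orange points. The orange points of the 6 transcription factor genes lie between -0.13 and 0.09, while the listed genes reach from -2.87 (Il2ra) to 1.31 (Cd27).

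Around these genes, 7 lists of the same pathway were read by their counts. They held 93 measured genes, of which 5 rose and 3 fell with GSI, a share of 8.60% against 4.12% of all genes. With any single array left out none of these 8 passed except Il2ra, which passed without either DMSO array and not without either GSI array. In the list of Egr and Nr4a partners 0 of 12 passed limma, 4 had an unadjusted p under 0.05, and the median difference was 0.01. The list holds Nab1 and Nab2, which repress Egr factors, the retinoid X receptors that pair with Nr4a1 and Nr4a2, and the serum response factor with its Elk partners. Nab2, itself a target of Egr factors, differed by 0.01. The members with the smallest p were Mef2d, encoding a factor that drives Nr4a1 transcription, which read 8.73 and 8.81 with DMSO and 9.24 and 9.17 with GSI, and Elk1. They differed by 0.43 and 0.40 (limma, adjusted p = 0.0584 and 0.101), and other probe sets of both differed by less than 0.1.

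Of 21 further immediate early genes 1 rose, 1 fell and 19 did not pass, with a median of -0.02. Btg2, an antiproliferative gene, read 10.02 and 10.04 with DMSO and 11.43 and 11.05 with GSI, a 2.31-fold rise (limma, adjusted p = 0.0138). Jun, a subunit of AP-1, read 5.30 and 5.09 with DMSO and 4.51 and 4.57 with GSI. It fell by 0.66 (limma, adjusted p = 0.0326) on the brighter probe set, and the dimmer one fell by 1.96, so the probe sets disagreed on the size. Among all probe sets the dimmer one passed and the brighter one did not (limma, adjusted p = 0.00546 and 0.0608). Fos and Fosb, which often rise together with Egr1, differed by 0.20 and -0.01 and were not called. Both were dim, at mean log2 levels of 3.95 and 3.12.

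Upstream, 1 of 15 genes of calcium, calcineurin and NFAT rose and 14 did not pass, with a median of 0.10. The gene that rose was Ppp3ca, the catalytic subunit A alpha of calcineurin, which read 7.91 and 7.74 with DMSO and 8.55 and 8.35 with GSI (1.54-fold, limma, adjusted p = 0.0447). Its 3 probe sets differed by 0.51 to 0.62 and none passed among all probe sets. Of 13 Ras and ERK genes 0 passed limma and 0 had an unadjusted p under 0.05, with a median of 0.06. Rasgrp1, the exchange factor that activates Ras behind the receptor, differed by 0.21, and Rasa1 by 0.18 (limma, adjusted p = 0.258 and 0.278).

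Among 15 other activation markers 2 rose, 2 fell and 11 did not pass, with a median of -0.01. The share called was 26.7%, against 4.12% of all genes and 0% to 9.52% in the other pathway lists. Of the 15, 6 had an unadjusted limma p under 0.05, against 21.5% of all genes. Il2ra, the interleukin-2 receptor alpha chain and also a Notch target, read 8.83 and 9.11 with DMSO and 6.11 and 6.07 with GSI and fell by 2.87 (limma, adjusted p = 0.00101). Its dimmer probe set differed by -1.78 and did not pass among all probe sets (limma, adjusted p = 0.0526), so the probe sets disagreed on the size there too. Cd27, a costimulatory receptor of the tumour necrosis factor receptor family, rose 2.47-fold, and its relative Tnfrsf18 rose 1.61-fold (limma, adjusted p = 0.00841 and 0.0195). The groups did not overlap for any of these 3, as was so for 51.4% of all genes. Irf4, a factor whose level follows receptor signal strength, read 5.03 and 4.97 with DMSO and 4.41 and 4.54 with GSI. It fell by 0.52 (limma, adjusted p = 0.0429), but its dimmer probe set differed by -0.15 and the mean of both did not pass (adjusted p = 0.115). Cd6, a relative of Cd5, differed by -0.01 and was not called.

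Of 15 genes known as targets of Egr or Nr4a factors in T cells, 1 rose and 14 did not pass, with a median of 0.09. Tox, which Nr4a factors induce during T cell exhaustion, read 7.81 and 7.64 with DMSO and 8.59 and 8.52 with GSI. This was a 1.77-fold rise (limma, adjusted p = 0.0148). Its other probe sets differed by 0.57 and 0.70 and did not pass among all probe sets (limma, adjusted p = 0.134 and 0.0563). Of 4 measured genes of thymocyte egress 0 passed limma and 0 had an unadjusted p under 0.05. S1pr1, encoding the receptor that CD69 binds, differed by -0.06 and Ccr7 by 0.08 (limma, adjusted p = 0.763 and 0.704). Both were dim, at mean log2 levels of 4.06 and 3.56, and Ccr7 read 3.60 on DMSO replicate 2 and on both GSI arrays. Of the 4 egress genes 3 lay below the array median on all arrays, so a small difference says little about them.

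**Figure D4:**
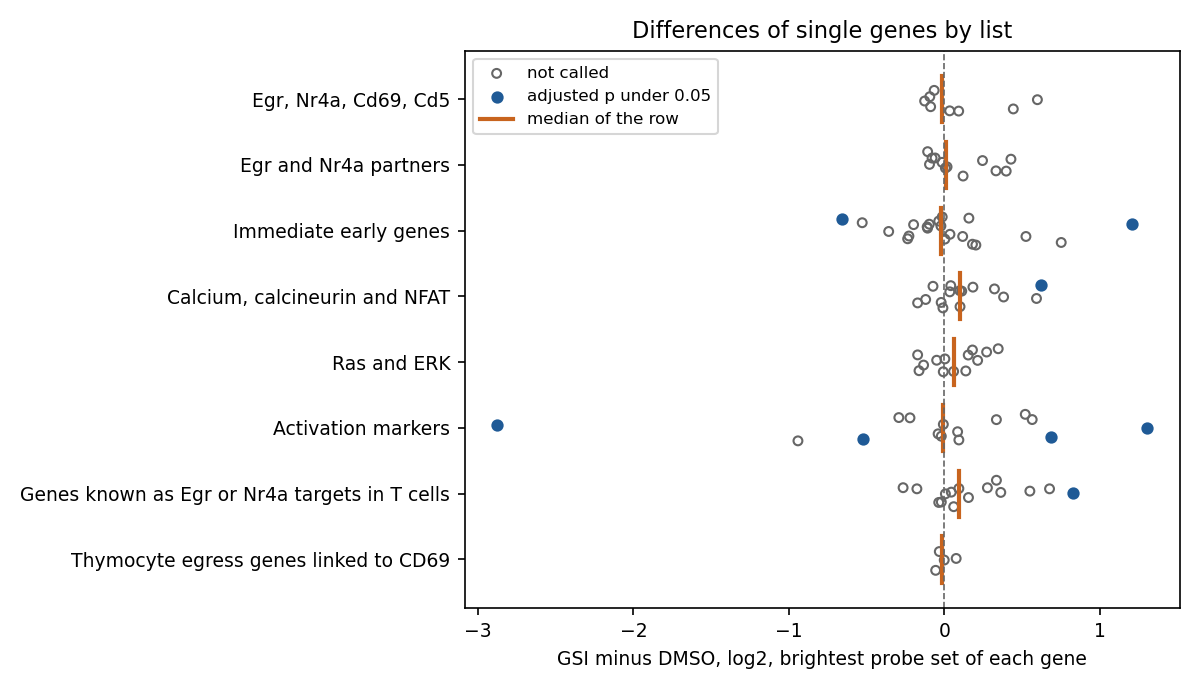
Difference between GSI and DMSO in log2 units (horizontal axis) for each gene of the 8 early response genes and of the 7 pathway lists, with filled points for genes called at an adjusted p under 0.05, open points for the rest and a bar at the median. Row medians lie between -0.02 and 0.10, and the filled points are single genes of 4 lists.

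The label of the line was checked against markers. Of 11 measured T lineage markers 5 rose and 1 fell, a share of 54.5% against 4.12% of all genes. Their median log2 level was 10.10, and their summed log2 level was 105.4 on both DMSO arrays and 107.7 to 108.3 on the GSI arrays. Markers of other cells had median levels of 4.16 (B cell), 4.33 (myeloid), 3.03 (natural killer), 4.40 (stromal and epithelial) and 4.49 (erythroid). Not all of these markers were dim, as mean levels were 8.04 for Pdgfrb, 7.24 for Pecam1, 7.01 for Epor and 6.20 for Cd14. In the B cell, myeloid, natural killer and erythroid lists 0 of 7, 9, 6 and 5 genes passed limma, with 0, 1, 0 and 1 at an unadjusted p under 0.05. In the stromal and epithelial list of 9 genes Pdgfrb fell and Pecam1 rose, a share of 22.2% against 4.12% of all genes. There 4 genes had an unadjusted limma p under 0.05. The part of the T lineage markers in the Cd5 difference was not tested.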

How the data were processed

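Gene expression was measured on 4 arrays, 2 per group, with groups taken from the sample titles. The deposited values were log2 expression per probe set, made by the authors with RMA per the submitters' processing notes, which corrects background, normalizes between arrays and summarises probes. The version of RMA is not stated in the labels, and probe-level data were not used here. Of 45101 probe sets, none with a missing value, 64 controls were left out. Symbols came from the platform annotation (34945 probe sets with 1 symbol, 932 with several, 9160 with none), updated through RefSeq gene identifiers.

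A gene was represented by its brightest probe set (highest mean over the arrays) among those with 1 symbol. Groups were compared in R 4.3.3 using the moderated test of limma 3.58.1 (two-sided, group as the only term), adjusted by Benjamini-Hochberg over all 18193 genes and called at an adjusted p under 0.05. A second fit took every probe set. The fit had 5.80 degrees of freedom, and intervals are 95% intervals of that fit without adjustment for the number of genes. For arrays, their number limits the precision. The 8 genes and the pathway lists were chosen with earlier results of these data known. Up to 4 called genes with the largest change were named from each pathway list. Where none was called, the 2 with the smallest p were named. For the member with the smallest p the 3 genes nearest in profile were named, leaving out unnamed gene models. Other names were chosen after their values were seen. Listed genes that no such probe set represents were left out. The scripts were tested on simulated data. The alternatives were other ways to treat probe sets, dim genes, the prior and scaling, the replicate number as a block, and each array left out.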

Additional observations from a re-analysis of the deposited data

How the results depend on the processing

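None of the 8 genes was called under any of the 11 alternatives that tested it (limma; 85 values, since the 3 genes below the median were not tested when dim genes were left out). The adjusted p of Cd5 ranged from 0.0650 with the mean of probe sets to 0.379 without GSI replicate 1. Egr2 ranged from -0.191 without DMSO replicate 2 to 0.015 without DMSO replicate 1, and Egr3 from -0.159 to 0.029 without the same arrays, so both changed sign without DMSO replicate 1. Differences of the other 6 genes kept their direction with an array left out, between 0.12 and 1.07 for Cd69, 0.33 and 0.56 for Cd5, 0.06 and 0.12 for Egr1, 0.02 and 0.04 for Nr4a2, -0.16 and -0.02 for Nr4a1, and -0.18 and -0.07 for Nr4a3. Over all 18193 genes, 466 higher and 284 lower calls became 896 and 683 of 11160 with dim genes left out. With a trend and robust prior they became 1042 and 899 of 18193. With an array left out 0 to 1 were higher and 0 to 5 lower. In the pathway lists, 5 higher and 3 lower of 93 genes became 10 higher and 4 lower of 75 with dim genes left out. With a trend and robust prior they became 13 higher and 4 lower of 93. With every probe set tested 1 was lower, and with an array left out 0 were higher and 0 to 1 lower. The 1 lower gene was Il2ra, called without either DMSO array and not without either GSI array. Over all genes, same-numbered arrays deviated together only weakly (correlation of replicate differences 0.085), and the number was not taken as a pairing. On their brightest probe sets 7 of the 8 genes were higher in replicate 1 in both groups, against 29.1% of all genes. Whether equal numbers mark a shared batch was not tested. With the replicate number as a block 147 genes were higher and 70 lower, and in the lists 1 higher (Cd27) and 1 lower (Il2ra). The block gave a limma adjusted p of 0.109 for Cd69 and 0.130 for Cd5, and the SE of Cd69 went from 0.352 to 0.107.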
